A study of Rattus norvegicus with 7 samples.

Results

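Small nucleolar RNAs (snoRNAs) were followed in newborn rat heart muscle cells that had received 1 of 6 microRNAs (miRNAs) or the worm miRNA cel-miR-67. The series table lists 358 rows of the gene type snoRNA among its 17141 rows, and the 293 whose RPKM averaged 1 or more across the 7 libraries are described here. RPKM is the read number scaled by gene length in kilobases and by library size. The rows were chosen by their measured mean RPKM, so their levels are given as a description. Of the rows with SNORD symbols 146 of 152 were kept, of those with SNORA symbols 128 of 184, and of those with other symbols 19 of 22.

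The cells were ventricular cardiomyocytes of wild type Wistar rats at postnatal day 0. Each culture received 1 synthetic miRNA by transfection at 25 nM, with RNA collected after 72 h. The groups were miR-199a-3p and miR-590-3p, then miR-373-3p with miR-302d-3p, and last miR-33b* with miR-1825, which is also the order of any run of 6 values given without names. The reference was cel-miR-67, a miRNA of the worm Caenorhabditis elegans, which the labels do not call a control but by which the deposited ratios are divided. Each group is 1 library, so no difference has a replicate check and no p-value is given. All 6 comparisons share the single cel-miR-67 library: a row that is high or low there looks low or high in all of them at once. The rat's own miR-199a-3p, from the RefSeq table (GRCr8, chr13:77116294-77116315, plus strand), is printed with its seed, bases 2 to 8, in capitals, because the largest SNORD113 sum below came from that library. The sequences of the synthetic miRNAs were not analysed here.
rno-miR-199a-3p: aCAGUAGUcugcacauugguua

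snoRNAs are short nucleolar RNAs that guide chemical marks onto other RNAs, mostly ribosomal RNA. Those of the box C/D class, named SNORD, carry the methyltransferase fibrillarin to a target base and direct 2′-O-methylation, while those of the box H/ACA class, named SNORA, carry dyskerin and direct pseudouridylation. Most are cut out of the introns of host genes, many of which encode ribosomal proteins or translation factors, and they have no poly(A) tail. The libraries were made with a protocol for mRNA, so snoRNA reads here are what a library for polyadenylated RNA retained, and host transcripts that still hold an intron cannot be told apart from the trimmed snoRNA.

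The library sizes behind the deposited values lay between 22446204 and 34708142 reads. The reads of all listed genes came to 85.6% to 108% of that size in the miRNA libraries, against 110% in the cel-miR-67 library. Scaling to the listed reads in place of the authors' sizes multiplies every ratio by 1.28 for miR-199a-3p, 1.19 for miR-302d-3p, 1.14 for miR-373-3p, 1.10 for miR-1825, 1.09 for miR-33b* and 1.01 for miR-590-3p. On that scale the median log2 change of all genes that average 1 RPKM or more moves by up to 0.30, and the snoRNA ratios below move with it. The 6 cardiomyocyte markers (Tnnt2, Myh6, Actn2, Tnni3, Ryr2 and Nppa) summed to 4103 to 6585 RPKM in the miRNA libraries, against 6270 RPKM in the cel-miR-67 library. Nppa alone ran from 561 to 3098.5 RPKM, against 1860 RPKM. Myh6, Actn2 and Ryr2 were lower in all 6 miRNA libraries, while Tnnt2, Tnni3 and Nppa went both ways. The median log2 change of the 6 markers was -0.50 to -0.23. The 4 fibroblast markers (Col1a1, Dcn, Pdgfra and Postn) summed to 104 to 146 RPKM with the 6 miRNAs, against 188 RPKM with cel-miR-67. Much of that gap lay in Postn, at 38.3 to 56.8 RPKM, against 107 RPKM, and with miR-199a-3p the other 3 were higher than with cel-miR-67. For 3 smooth muscle markers (Acta2, Myh11 and Tagln) the sums were 521 to 1006 RPKM, against 656 RPKM. Those of the 3 endothelial markers found, the 3 macrophage and the 3 erythroid markers lay between 1.61 and 8.26 RPKM in all 7 libraries. The part of cell makeup in the snoRNA values was not tested, and in bulk samples fewer cells of a type and less RNA per cell cannot be told apart.

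Most members rested on few reads. Over the 7 libraries together a member held between 13 and 5407 reads, with a median of 68. In the cel-miR-67 library the median member had 8 reads, 173 members had fewer than 10, and 7 had none. A single read on a row of 80 bases is worth 0.36 to 0.557 RPKM, depending on the library. The mean RPKM of the members had a median of 3.53 and a maximum of 175. Just inside the limit of 1 RPKM stood a SNORA70 row (ENSRNOG00000053071, 25 reads in all), a SNORD113 row (ENSRNOG00000054149, 16 reads) and a SNORA18 row (ENSRNOG00000055959, 24 reads), with means of 1.00, 1.01 and 1.01 RPKM. Just outside it stood SNORD100 (ENSRNOG00000061678, 14 reads), SNORA25 (ENSRNOG00000053665, 24 reads) and SNORA36 (ENSRNOG00000058052, 23 reads), with means of 0.998, 0.973 and 0.969 RPKM. The members held 98.0% of the 52984 snoRNA reads, and 35.8% of the members' reads lay in 12 rows. Members were 60 to 328 bases long, with medians of 81 bases for SNORD and 132 bases for SNORA rows.

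The total amount of snoRNA differed little between the libraries, with the miR-1825 library lowest. Summed over all 358 rows, there were 254 RPM (reads in 1000000 reads of library size) with miR-1825, 278 with miR-199a-3p, 280 with miR-33b*, 280 with miR-590-3p, 291 with miR-373-3p and 293 with miR-302d-3p, against 283 with cel-miR-67. Ratios of read rates are given with an exact (Clopper-Pearson) 95% interval, which covers counting error only and compares 2 libraries, not the conditions. The ratio to cel-miR-67 was 0.900 (0.869 to 0.931) for miR-1825 and 1.04 (1.00 to 1.07) for miR-302d-3p, and the other 4 intervals held 1, with ratios of 0.983 to 1.03. Scaled to the listed reads, the miR-1825 ratio was 0.986, and it was 1.26 for miR-199a-3p, 1.23 for miR-302d-3p and 1.18 for miR-373-3p. The snoRNA sum therefore has no direction that holds under both scalings for miR-199a-3p, miR-33b* or miR-590-3p. In 1000000 listed reads the last 2 had 278 and 258.3 snoRNA reads, against 258.2 with cel-miR-67. Mitochondrial rows held 27.7% of the listed reads with miR-199a-3p and 41.0% with cel-miR-67. With those rows left out of the listed reads, the miR-199a-3p ratio was 1.03. For comparison, rows of the gene type miRNA had ratios of 0.502 to 1.15 to cel-miR-67 on the authors' scale.

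Sums of the 2 classes depended on a few rows. SNORD rows, the box C/D names, had 151 and 150 RPM with miR-373-3p and miR-302d-3p, against 142 with cel-miR-67, which gave ratios of 1.06 (1.01 to 1.11) and 1.05 (1.01 to 1.10). Without the 27 SNORD113 rows both intervals held 1, at 1.02 (0.969 to 1.07) and 1.04 (0.995 to 1.09). SNORA rows, the box H/ACA names, stood at 119 and 125 RPM in the same libraries, against 121 with cel-miR-67, with intervals that held 1. Without the SNORA4 row that holds the most reads their ratios were 1.05 (0.989 to 1.11) and 1.07 (1.01 to 1.13). With miR-33b* SNORD rows stood at 149 RPM and SNORA rows at 109, against 142 and 121 with cel-miR-67. The SNORA ratio there was 0.899 (0.851 to 0.949), but without the SNORA4 row that holds the most reads it was 0.983 (0.923 to 1.05). Likewise with miR-1825 the SNORA ratio was 0.908 (0.862 to 0.957) with that row and 0.996 (0.938 to 1.06) without it. The SNORD ratio with miR-1825 was 0.890 (0.848 to 0.934), and without the SNORD113 rows it was 0.927 (0.881 to 0.975). Without SNORD113 the SNORD ratio with miR-199a-3p was 0.923 (0.877 to 0.971), against 0.998 (0.952 to 1.05) with it. Over the listed reads these values without SNORD113 turned to 1.18 (1.12 to 1.24) for miR-199a-3p and 1.02 (0.965 to 1.07) for miR-1825.

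**Figure D1:**
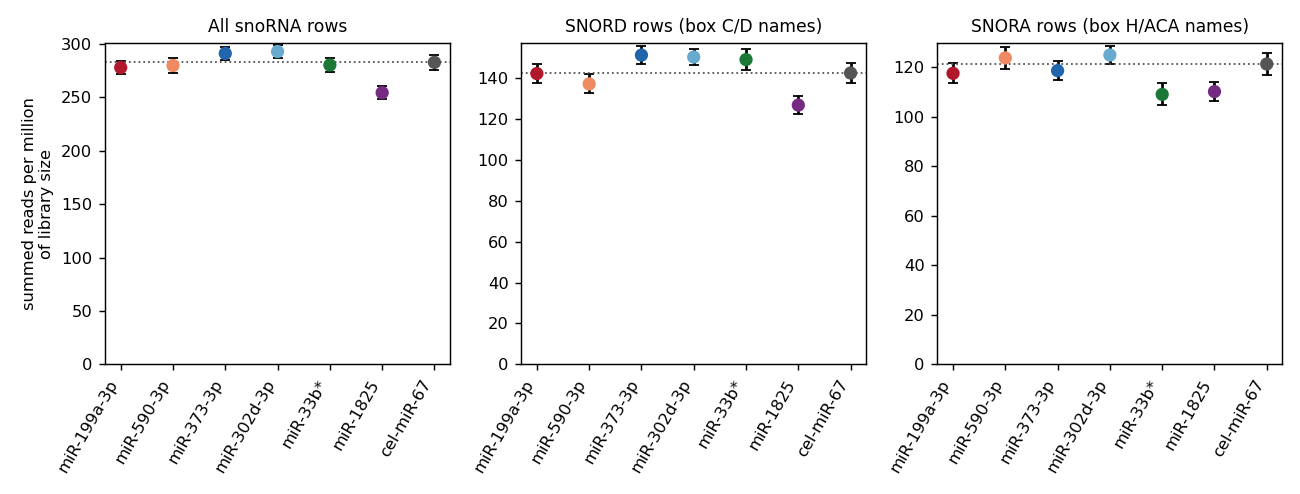
Summed RPM (vertical axes, from 0) by library for all 358 snoRNA rows, the SNORD rows and the SNORA rows. Points are single libraries, bars are exact 95% Poisson intervals (counting error only), and the dotted line marks cel-miR-67. The miR-1825 library stands at 254 over all rows, against 283 for cel-miR-67.

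Row by row, members passed a 2-fold limit more often than genes at large but their counting intervals excluded 1 less often. Fold changes for this count are log2((RPKM + 1)/(cel-miR-67 RPKM + 1)), which understates changes of low rows, and the limit is 1 on that scale. With miR-199a-3p 21 of the 293 members were at least 2-fold higher and 16 at least 2-fold lower, beside 1.04% and 1.52% of all 12330 genes that average 1 RPKM or more. With miR-590-3p there were 22 higher and 21 lower (1.51% and 0.762% of all genes), and with miR-373-3p 19 higher and 12 lower (1.15% and 1.87%). With miR-302d-3p there were 18 higher and 15 lower (1.31% and 2.11%), with miR-33b* 21 higher and 12 lower (1.3% and 1.24%), and with miR-1825 17 higher and 20 lower (2% and 1.63%). Each member count is 4.10% to 7.51% of the 293. Members were not alone in this. The shares were 5.42% to 11.9% for 295 rows of other short RNA types (miRNA, snRNA, scaRNA, misc_RNA and rRNA). They were 0.5% to 4% for 400 protein-coding rows of 28 to 400 reads over the 7 libraries. Most of the members counted held few reads: with at least 10 reads asked for in the miRNA or the cel-miR-67 library, 9 to 14 were higher and 1 to 6 lower in each comparison.

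The intervals put the members on the scale of counting error. They lay above 1 for 13 members and below 1 for 16 with miR-199a-3p, beside 25.4% and 26.5% of all genes. The counts were 11 above and 13 below with miR-590-3p (24.2% and 23.5% of all genes), 17 and 9 with miR-373-3p (27.5% and 27.3%), and 14 and 13 with miR-302d-3p (30.1% and 27.6%). With miR-33b* they were 13 and 8 (25.1% and 27.2%), and with miR-1825 9 and 19 (28% and 26.8%). As shares of the members these are 2.73% to 6.48%. For the 295 rows of other short RNA types they were 6.10% to 14.2%, also below those of all genes. Genes at large have far more reads, so a narrower comparison is with 400 protein-coding rows of 28 to 400 reads over the 7 libraries, of which 7.25% to 13.5% lay above 1 and 10.2% to 14.8% below. The direction of the calls depends on the scaling. Over the listed reads no share of all genes was counted. The median log2 change of all genes was itself 0.30 there with miR-199a-3p, 0.23 with miR-302d-3p and 0.17 with miR-373-3p. It was 0.11, 0.096 and 0.012 with miR-1825, miR-33b* and miR-590-3p. With rates over the listed reads the counts were 35 above and 4 below with miR-199a-3p, 31 and 5 with miR-373-3p, 30 and 5 with miR-302d-3p, 18 and 5 with miR-33b*, 12 and 13 with miR-1825, and 12 and 12 with miR-590-3p. On that scale 44 members were at least 2-fold higher and 9 lower with miR-199a-3p, 25 and 10 with miR-373-3p, 28 and 11 with miR-302d-3p, 24 and 5 with miR-33b* and 19 and 15 with miR-1825.

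A measure over all 7 libraries at once was also lower for the members than for protein-coding rows with as many reads. Unlike above, the limit of 1 RPKM was not applied to the comparison rows here, so they include genes below it. The variance index divides the chi-square of a row's reads around its mean rate by its 6 degrees of freedom, so that counting error alone gives values near 1. Among rows with at least 20 and fewer than 70 reads its median was 1.35 for the members and 1.78 for protein-coding rows. From 70 to below 210 reads the medians were 1.51 and 2.54, from 210 to below 700 reads 1.93 and 4.02, and from 700 to below 2500 reads 3.09 and 6.05. Rows of the other short RNA types had medians of 1.38, 2.00, 3.48 and 7.67 in the same 4 ranges. Of the members, 47 had an index of at least 3, a count that was not made over all genes. From 210 to below 2500 reads the protein-coding medians were themselves above 3. The highest index of a member was 27.4, for the SNORA4 row with the most reads.

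**Figure D2:**
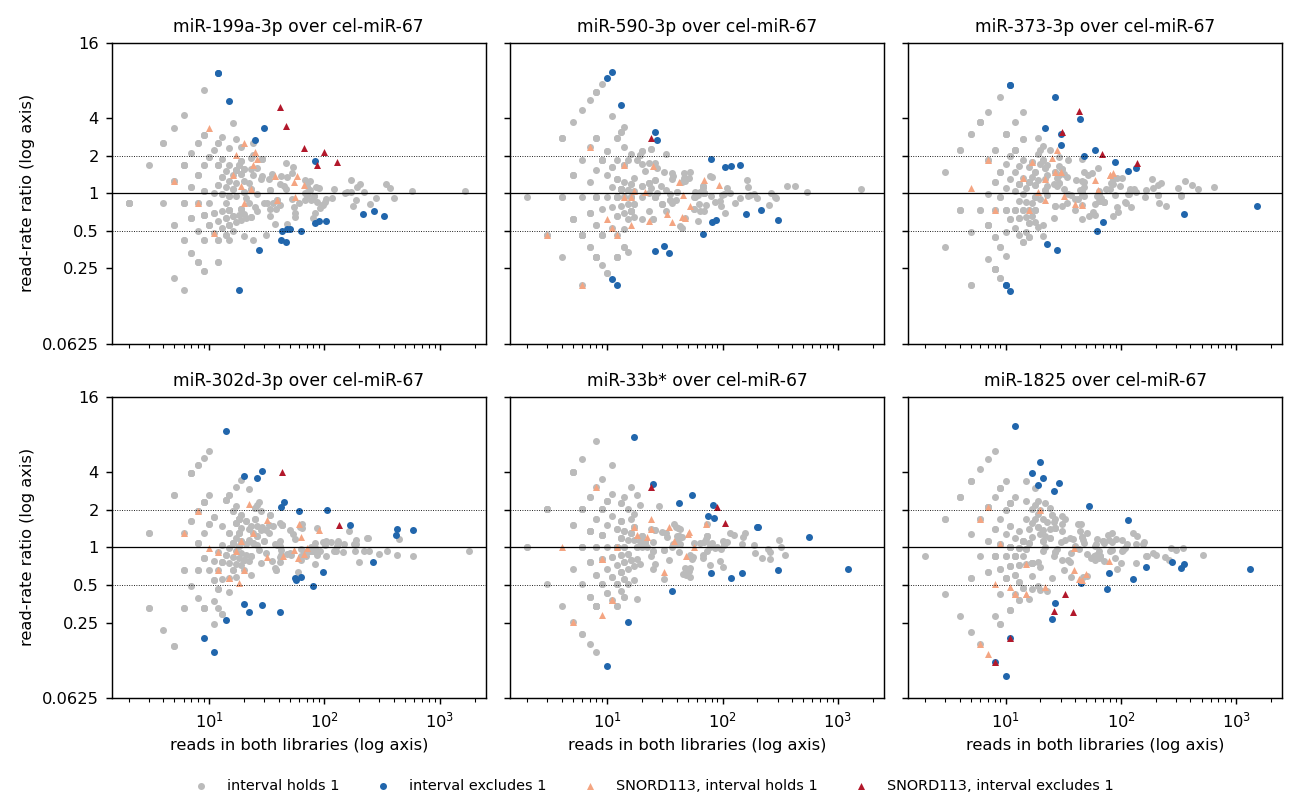
Ratio of read rates to cel-miR-67 (vertical log axis) against the reads of a member in both libraries (horizontal log axis), 1 panel per miRNA. Triangles are SNORD113 rows, darker colours mark intervals that exclude 1, dotted lines mark ratios of 0.5 and 2, and members with 0 reads in either library (7 to 11 per panel) are left out. The spread narrows as reads increase, and with miR-1825 no SNORD113 row whose interval excludes 1 lies above the line.

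SNORA4 supplied the most reads of any member. In humans it is a box H/ACA RNA of an EIF4A2 intron. The row ENSRNOG00000056465, 164 bases long, stood at 213 RPKM with miR-590-3p, 205 with miR-199a-3p, 185 with miR-302d-3p, 156 with miR-373-3p and 133 with both miR-33b* and miR-1825, against 198 RPKM with cel-miR-67. The miR-590-3p, miR-199a-3p, miR-302d-3p and cel-miR-67 libraries thus lay above the other 3. Its read-rate ratio was 0.787 (0.710 to 0.871) with miR-373-3p, 0.669 (0.595 to 0.751) with miR-33b* and 0.669 (0.600 to 0.747) with miR-1825. A second box H/ACA row, SNORA1 (ENSRNOG00000058606), was low in the last pair too, at 14.4 RPKM with miR-33b* and 14.0 with miR-1825, against 25.2 RPKM with cel-miR-67. Its other miRNA libraries stood at 23.4 to 28.0 RPKM.

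SNORD24 and SNORA62 were highest with miR-302d-3p. SNORD24, known as U24, guides methylation of 28S ribosomal RNA and sits in an intron of the ribosomal protein gene RPL7A in humans. Its main row (ENSRNOG00000060649) stood at 139 RPKM with miR-302d-3p and 74.6 with miR-1825, the extremes, against 102 RPKM with cel-miR-67, and at 87.5 to 116 RPKM with the other 4 miRNAs. The ratios were 1.37 (1.15 to 1.64) for miR-302d-3p and 0.734 (0.592 to 0.910) for miR-1825. SNORA62, the H/ACA RNA E2 of an RPSA intron in humans, had 53.6 RPKM with miR-302d-3p and 47.0 with miR-373-3p in its main row (ENSRNOG00000058283), against 37.9 RPKM with cel-miR-67. In the other 4 miRNA libraries it had 29.9 to 34.8 RPKM. The ratio was 1.41 (1.15 to 1.75) for miR-302d-3p. The mRNA of Rpsa was also highest in that library, at 860 RPKM, against 767 RPKM with cel-miR-67. For Rpl7a, which stands under 2 identifiers of nearly equal reads, the first row (ENSRNOG00000047737) had 404 RPKM with miR-302d-3p and 414 with miR-1825, against 337 RPKM with cel-miR-67, so that it was high in both libraries in which SNORD24 lay at opposite ends.

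The row snoU85 (ENSRNOG00000060559) bears the name of a mixed box C/D and H/ACA RNA of Cajal bodies that guides marks on the U5 spliceosomal RNA, and its 328 bases equal the length of Scarna10 in RefSeq. It had 41.7 RPKM with miR-33b*, 29.1 with miR-302d-3p and 29.8 to 38.7 with the other 4, against 34.3 RPKM with cel-miR-67. Its interval excluded 1 for miR-33b* alone among the 6 miRNAs, at 1.22 (1.03 to 1.44). SNORD45 (ENSRNOG00000053795), a box C/D RNA from RABGGTB introns in humans, had 62.7 to 96.8 RPKM with the 6 miRNAs, against 77.3 RPKM with cel-miR-67. Its highest value was that of miR-302d-3p, at a ratio of 1.25 (1.02 to 1.54). SNORA18 (ENSRNOG00000061688) had 53.3 to 62.5 RPKM, against 53.9 RPKM, and SNORA70 (ENSRNOG00000054339) 26.9 to 32.9 RPKM, against 32.4 RPKM. Neither had an interval that excluded 1 in any of the 6 comparisons.

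**Figure D3:**
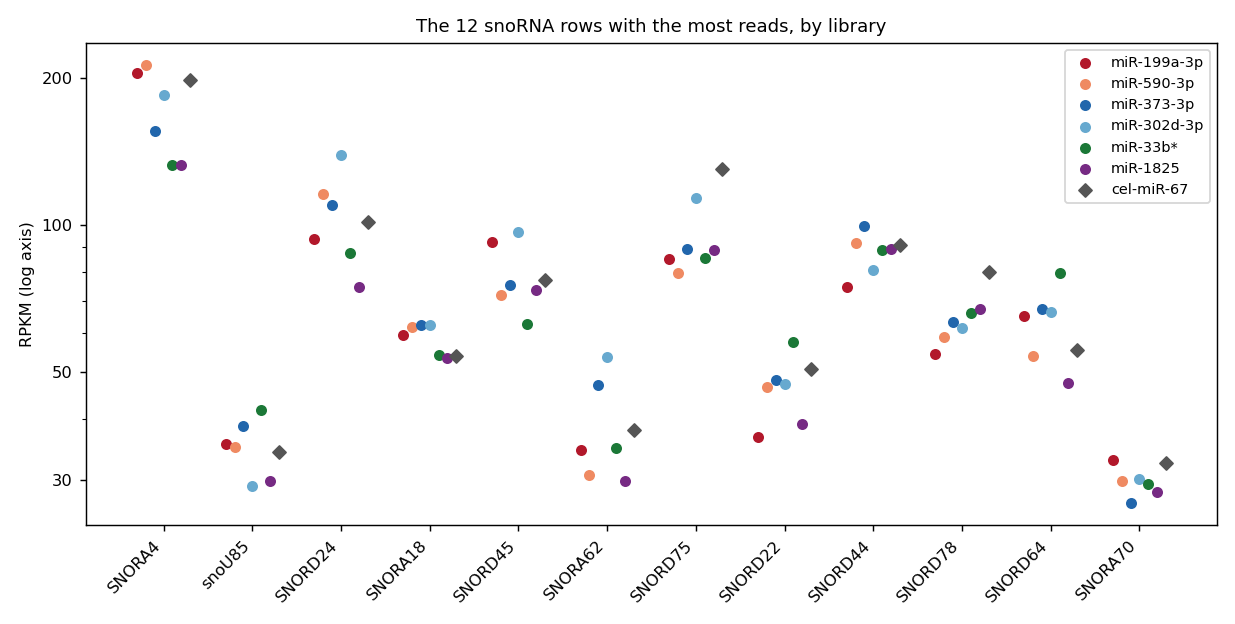
RPKM (log axis) of the 12 snoRNA rows with the most reads, with 1 point per library and the cel-miR-67 library as a grey diamond at the right of each row. SNORA4 shows 133 RPKM with miR-33b* and miR-1825, against 198 with cel-miR-67, while SNORD75 and SNORD78 are highest in the cel-miR-67 library.

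SNORD113 was the family with the most rows, and its sum varied between libraries by more than counting error. In humans and mice SNORD113-type RNAs are box C/D RNAs encoded in tandem in the imprinted Dlk1-Meg3 region and transcribed from the maternal chromosome. Most have no known target on ribosomal RNA. All 27 rows were members, and their chromosome positions on the files' build were not analysed here. RefSeq places its 5 entries of the SNORD113 and SNORD114 type on chromosome 6 of GRCr8, past Meg3 and Rtl1. The 27 rows summed to 669 reads with miR-199a-3p, 667 with miR-373-3p, 611 with miR-302d-3p, 439 with miR-33b*, 342 with miR-590-3p and 236 with miR-1825, against 344 reads with cel-miR-67. Scaled to library size there were 24.7 RPM with miR-199a-3p, 21.8 with miR-373-3p, 19.6 with miR-33b*, 17.6 with miR-302d-3p, 14.0 with miR-590-3p and 8.81 with miR-1825, against 15.2 with cel-miR-67. The miR-199a-3p library was highest and the miR-1825 library lowest. The ratio was 1.63 (1.43 to 1.86) for miR-199a-3p, 1.43 (1.26 to 1.64) for miR-373-3p and 1.29 (1.12 to 1.49) for miR-33b*. It was 1.16 (1.02 to 1.33) for miR-302d-3p, 0.923 (0.792 to 1.08) for miR-590-3p and 0.581 (0.490 to 0.687) for miR-1825. Between the extremes, miR-1825 over miR-199a-3p, it was 0.356 (0.306 to 0.414).

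The difference ran through many SNORD113 rows. With miR-199a-3p 22 of the 27 rows were higher than with cel-miR-67 and 5 lower, beside 49.7% and 50.3% of all genes. With miR-1825 6 were higher and 21 lower (50.5% and 49.5% of all genes). With miR-373-3p 21 were higher and 6 lower (50.9% and 49.1%), and with miR-33b* 18 and 8 (49.5% and 50.5%). With miR-302d-3p 13 were higher and 14 lower (52% and 48%), and with miR-590-3p 11 and 16 (49.7% and 50.2%). The miR-199a-3p library held the highest value of 13 rows and the miR-1825 library the lowest of 18. No such count was made over all genes, and some of these values rest on very few reads. Rows ENSRNOG00000051976 and ENSRNOG00000052419, for example, held 1 read each with miR-1825. Of the 13 members whose interval lay above 1 with miR-199a-3p 7 were SNORD113 rows, and of the 19 below 1 with miR-1825 5 were. As shares of the 27 rows these are 25.9% and 18.5%, beside 25.4% and 26.8% of all genes, shares near and below those of genes at large. None of the 27 lay below 1 with any of the other 5 miRNAs or above 1 with miR-1825. The family was singled out after its values had been seen, and its rows may share reads where their sequences are alike.

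Single SNORD113 rows show the size of the difference. The one with the most reads (ENSRNOG00000056115, 81 bases) stood at 39.7 RPKM with miR-199a-3p, 38.7 with miR-373-3p, 34.7 with miR-33b*, 33.4 with miR-302d-3p, 25.8 with miR-590-3p and 17.5 with miR-1825, against 22.3 RPKM with cel-miR-67. Without it the family ratio was 1.61 for miR-199a-3p and 0.553 for miR-1825, and the interval of miR-302d-3p held 1, at 1.11 (0.965 to 1.29). Another (ENSRNOG00000059277, 81 bases) had 32.4 RPKM with miR-199a-3p and 8.29 with miR-1825, against 15.2 RPKM with cel-miR-67. A row of 74 bases (ENSRNOG00000059106) had 37 reads with miR-199a-3p and 2 with miR-1825, against 9 with cel-miR-67. The row ENSRNOG00000060706 stood apart through its low control value: it had 35, 18, 37, 37, 18 and 14 reads with the 6 miRNAs, against 6 with cel-miR-67, and among members with 10 reads in either library it has the largest log2 change with miR-373-3p, miR-199a-3p and miR-302d-3p. Scaled to the listed reads, the family ratio was 2.09 for miR-199a-3p, 1.64 for miR-373-3p, 1.40 for miR-33b*, 1.38 for miR-302d-3p, 0.933 for miR-590-3p and 0.636 for miR-1825, so that the extremes kept their places.

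**Figure D4:**
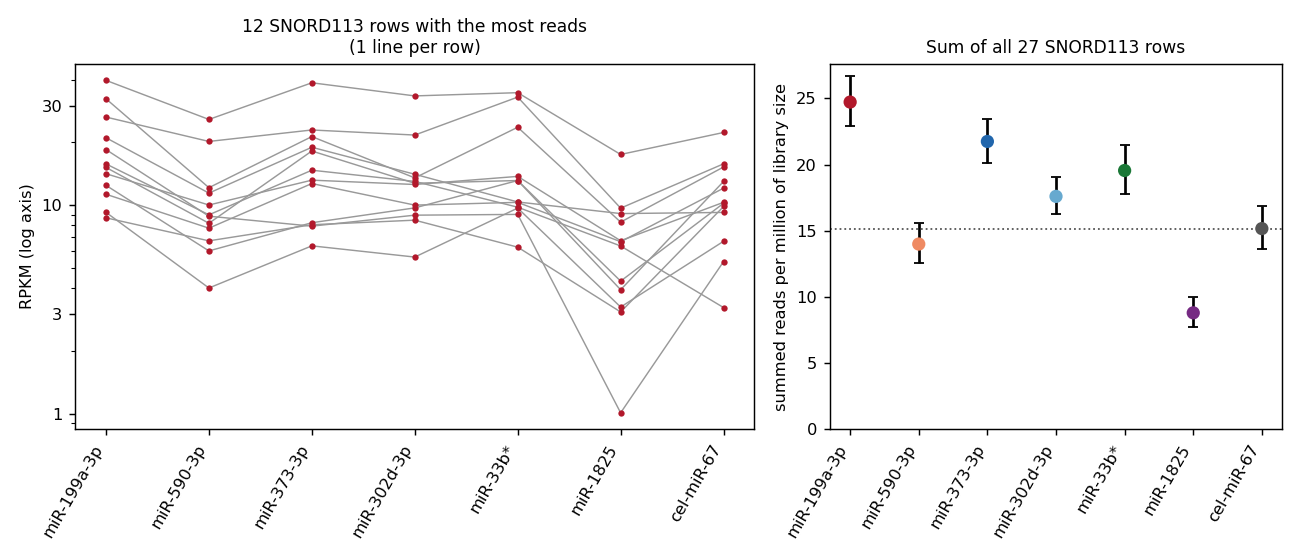
Left, RPKM (log axis) of the 12 SNORD113 rows with the most reads, 1 line per row, by library. Right, RPM summed over all 27 SNORD113 rows (axis from 0), with exact 95% Poisson intervals and a dotted line at cel-miR-67. The sum is 24.7 with miR-199a-3p and 8.81 with miR-1825, against 15.2 with cel-miR-67.

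Meg3, a long non-coding RNA gene on the maternally expressed side of this region, was not analysed here. The coding gene Rtl1, a retrotransposon-derived gene expressed from the paternal chromosome, held 42, 29, 45, 54, 24 and 8 reads with the 6 miRNAs, against 22 reads with cel-miR-67. Its ratio with miR-1825 was 0.308 (0.118 to 0.718), and the other 5 intervals held 1. How reads were assigned to strands is not given in the sources used here, so reads of Rtl1 and of transcripts antisense to it cannot be told apart. Dlk1 stood between 0.0471 and 0.194 RPKM with the 6 miRNAs, against 0.0936 RPKM with cel-miR-67. The promoter window of Meg3 is printed because the RefSeq SNORD113 entries lie past that gene, and the window of Gas5, a snoRNA host described below, because its snoRNA rows differed among themselves. Each window holds 250 bases before and 50 after the gene's start, from RefSeq on GRCr8: Meg3 at chr6:134273806-134274105 and Gas5 at chr13:75836713-75837012, both on the plus strand. Capitals mark TGACGTCA, the cyclic AMP response element, which reads the same on both strands.
Meg3: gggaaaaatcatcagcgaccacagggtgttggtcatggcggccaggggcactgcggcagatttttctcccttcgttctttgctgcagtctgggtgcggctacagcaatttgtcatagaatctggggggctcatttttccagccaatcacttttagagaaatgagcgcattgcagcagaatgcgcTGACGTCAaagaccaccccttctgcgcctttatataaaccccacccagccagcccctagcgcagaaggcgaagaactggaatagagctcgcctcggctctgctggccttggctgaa
Gas5: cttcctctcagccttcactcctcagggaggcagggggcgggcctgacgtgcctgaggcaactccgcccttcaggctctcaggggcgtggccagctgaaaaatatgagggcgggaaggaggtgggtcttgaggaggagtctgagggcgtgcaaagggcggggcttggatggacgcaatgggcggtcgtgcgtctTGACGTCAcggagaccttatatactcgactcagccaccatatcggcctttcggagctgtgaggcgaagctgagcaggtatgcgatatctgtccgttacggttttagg
The motif begins 66 bases before the start of Meg3 and 57 bases before that of Gas5. It occurs in 612 of the 33469 promoter windows of the table, 1.83%. A match describes the letters of the window only.

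The second imprinted group, SNORD64, SNORD107 and SNORD116, was also lowest with miR-1825. In humans these box C/D RNAs come from the Prader-Willi region next to SNURF and SNRPN and are expressed from the paternal chromosome. The 6 rows summed to 13.5 RPM with miR-33b*, 12.8 with miR-373-3p, 12.1 with miR-302d-3p, 11.1 with miR-199a-3p, 9.75 with miR-590-3p and 7.84 with miR-1825, against 9.17 with cel-miR-67. The ratio was 1.47 (1.23 to 1.76) for miR-33b*, 1.39 (1.17 to 1.66) for miR-373-3p, 1.32 (1.11 to 1.57) for miR-302d-3p and 1.21 (1.01 to 1.45) for miR-199a-3p. It was 1.06 (0.878 to 1.29) for miR-590-3p and 0.854 (0.702 to 1.04) for miR-1825. The miR-33b* library was thus highest on the authors' scale, but its interval overlapped that of miR-373-3p. Over the listed reads the ratios of miR-33b* and miR-373-3p were both 1.59, beside 1.57 for miR-302d-3p and 1.55 for miR-199a-3p. They were 1.07 for miR-590-3p and 0.936 for miR-1825, so no single library led on that scale. Without the SNORD64 row with the most reads the ratios on the authors' scale were 1.51 for miR-373-3p, 1.48 for miR-33b* and 0.853 to 1.40 for the other 4. The other SNORD64 row, of nearly equal reads, stayed in the sum, so this says little about the weight of SNORD64. If the 2 rows count the same reads, the intervals of the sum are too narrow.

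The members of this group did not follow each other. SNORD107 (ENSRNOG00000058701) had 28.7, 30.1, 28.1, 31.6, 34.7 and 18.7 RPKM with the 6 miRNAs, against 15.9 RPKM with cel-miR-67. The cel-miR-67 value is the lowest of the 7, and the 5 intervals other than that of miR-1825 lay above 1, with ratios of 1.76 to 2.18. SNORD64, whose 2 rows held 754 and 787 reads and may share reads, had 77.8 and 79.8 RPKM with miR-33b*, against 54.0 and 55.3 RPKM with cel-miR-67, and the ratio of the second was 1.44 (1.08 to 1.93). SNORD116, the RNA cluster deleted in patients with minimal Prader-Willi deletions, was high with miR-373-3p. Its main row (ENSRNOG00000058825) had 37 reads there and 1 with miR-1825, against 7 with cel-miR-67, and the other 4 miRNA libraries had 5 to 18. The ratio for miR-373-3p was 3.91 (1.72 to 10.4). A second SNORD116 row (ENSRNOG00000054305) had 6.31 RPKM with miR-373-3p and 0.401 with miR-1825, against 1.90 RPKM with cel-miR-67. Snurf held 21 to 60 reads with the 6 miRNAs, against 25 with cel-miR-67, and Snrpn 8 to 14, against 7, with intervals that held 1 throughout.

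The snoRNAs of Gas5 were lower in sum in all 6 miRNA libraries, but not under every scaling or without SNORD75. Gas5 is a non-coding host gene whose introns hold box C/D RNAs for ribosomal RNA and whose spliced transcript is known to accumulate in growth-arrested cells. Lengths of the 7 rows (SNORD44, SNORD47, SNORD74, SNORD75, SNORD78, SNORD79 and SNORD81) each equal that of a snoRNA inside Gas5 in RefSeq. They summed to 24.4, 25.1, 27.5, 27.3, 27.7 and 26.1 RPM with the 6 miRNAs, against 29.9 with cel-miR-67. The ratios ran from 0.815 (0.731 to 0.908) for miR-199a-3p to 0.925 (0.828 to 1.03) for miR-33b*, and the intervals of miR-199a-3p, miR-590-3p and miR-1825 lay below 1. Without SNORD75 the ratios were 0.874 to 1.02, and only the interval of miR-199a-3p stayed below 1. Over the listed reads they were 0.850 to 1.09, with 1.04 (0.936 to 1.16) for miR-199a-3p, and only that of miR-590-3p stayed below 1, at 0.850 (0.761 to 0.949). The transcript of Gas5 itself was not analysed here.

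SNORD75 (ENSRNOG00000055952, 62 bases) stood at 85.2, 79.9, 89.4, 113, 85.5 and 89.1 RPKM with the 6 miRNAs, against 130 RPKM with cel-miR-67. The cel-miR-67 library was the highest of the 7, and the ratios were 0.614 to 0.687 in every miRNA library but that of miR-302d-3p, which had 0.871 (0.716 to 1.06). SNORD78 (ENSRNOG00000055990, 66 bases) had 54.3, 58.9, 63.2, 61.6, 66.2 and 67.3 RPKM, against 80.2 RPKM with cel-miR-67. Its neighbour in the same host SNORD79 (ENSRNOG00000040595) went the other way, with 37.6 to 45.7 RPKM with the 6 miRNAs, against 35.3 RPKM with cel-miR-67. SNORD44 (ENSRNOG00000055652) had 74.5 to 99.4 RPKM, against 91.1 RPKM. SNORD81 (ENSRNOG00000052013, 77 bases) held fewer reads, with 15, 9, 24, 29, 20 and 15 with the 6 miRNAs, against 22 reads with cel-miR-67. That is 4.79 to 11.6 RPKM, against 12.6 RPKM, and its interval excluded 1 for miR-590-3p alone among the 6 miRNAs, at 0.380 (0.154 to 0.858). Of the 7 rows of this host, SNORD75, SNORD78 and SNORD81 were thus lower in all 6 miRNA libraries and SNORD79 was higher in all 6. Over the listed reads that held for SNORD78 and SNORD79, while with miR-302d-3p SNORD75 had a ratio of 1.04 and SNORD81 one of 1.02.

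A second non-coding host, listed in RefSeq as LOC100912041, holds the snoRNAs known from Snhg1 in other mammals. Of the 8 rows of their symbols 7 equal a RefSeq snoRNA inside it in length (SNORD22 and SNORD26 to SNORD31). They summed to 414 reads with miR-199a-3p and 490 with miR-33b*, against 433 with cel-miR-67, at ratios of 0.801 (0.699 to 0.919) and 1.14 (1.00 to 1.30). The other 4 intervals held 1. All 7 rows were higher with miR-33b*, and 6 of the 7 lower with miR-199a-3p, beside 49.5% and 50.3% of all genes. Taken singly, 0 rows had an interval above 1 with miR-33b* and 1 had one below 1 with miR-199a-3p. Over the listed reads the miR-199a-3p ratio was 1.03 (0.895 to 1.18), so its direction turned, and that of miR-33b* was 1.24 (1.09 to 1.42). Without SNORD22, the row with the most reads, the miR-33b* interval held 1, at 1.15 (0.976 to 1.35). SNORD22 (ENSRNOG00000056397), known as U22 and needed for 18S ribosomal RNA maturation in frog oocytes, had 36.7, 46.5, 48.1, 47.1, 57.6 and 39.1 RPKM with the 6 miRNAs, against 50.8 RPKM with cel-miR-67. SNORD30 (ENSRNOG00000061138) was highest with miR-590-3p, at 53.4 RPKM, against 32.0 RPKM, at 1.67 (1.17 to 2.41).

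Of the 7 rows with symbols that belong to EIF4A2 in humans, 5 equal a RefSeq snoRNA inside the rat gene in length, and the SNORA4 row with the most reads is not among them. The 5 rows summed to 179, 184, 266, 228, 156 and 186 reads with the 6 miRNAs, against 192 with cel-miR-67. Ratios of 0.781 (0.634 to 0.963) for miR-199a-3p and 0.776 (0.637 to 0.945) for miR-302d-3p lay below 1, and the other 4 intervals held 1. Both of these intervals held 1 over the listed reads, at 1.00 (0.812 to 1.23) and 0.923 (0.758 to 1.12), and likewise without the row with the most reads, at 0.772 (0.576 to 1.03) and 0.783 (0.596 to 1.03). The mRNA of Eif4a2, a translation initiation factor, stood at 109, 129, 114, 113, 121 and 121 RPKM, against 138 RPKM with cel-miR-67, lower in all 6 libraries. SNORD2 (ENSRNOG00000053621) had 36.2 to 56.2 RPKM, against 58.2 RPKM with cel-miR-67, and was likewise lower in all 6. Over the listed reads the ratio of Eif4a2 was 1.01 with miR-199a-3p, and that of SNORD2 was 1.01 with miR-199a-3p and 1.11 with miR-373-3p. The other libraries stayed below 1 for both. How many of all genes were lower in all 6 was not counted.

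**Figure D5:**
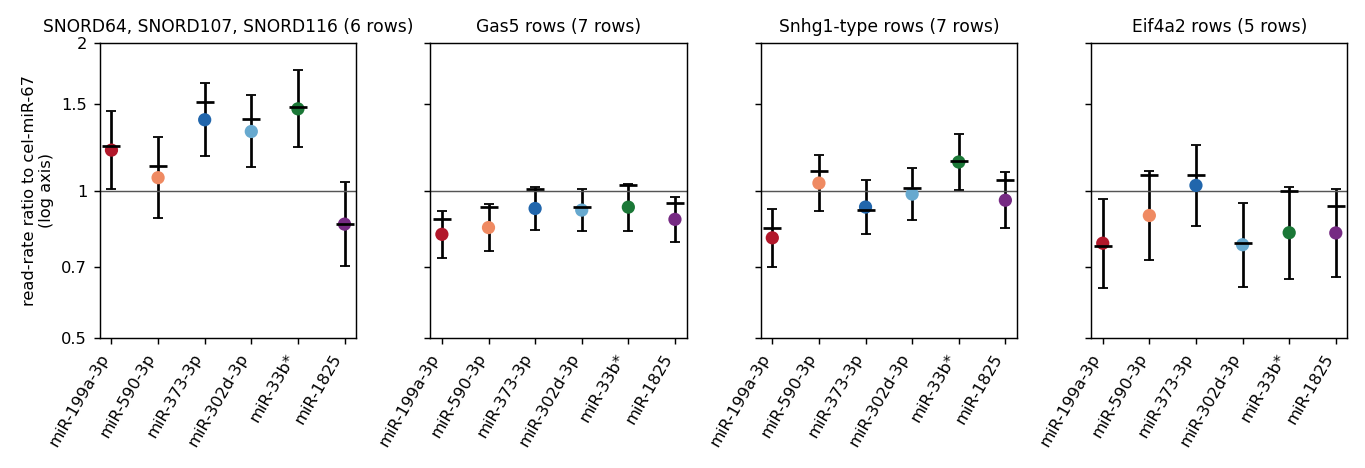
Ratio of summed read rates to cel-miR-67 (log axis) for 4 groups of snoRNA rows, by miRNA library. Bars are exact 95% intervals (counting error only), and horizontal dashes give the ratio without the row that holds the most reads. The rows of SNORD64, SNORD107 and SNORD116 reach 1.47 with miR-33b*, and those of Gas5 lie below 1 in all 6 libraries.

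A few snoRNAs act in cutting the ribosomal RNA precursor. U8 is needed for 28S and 5.8S, U22 and U17 (SNORA73) for 18S in frog oocytes, and U14 (SNORD14) for 18S in yeast. The 12 rows of these symbols summed to 10.1, 12.9, 12.3, 11.9, 13.1 and 11.4 RPM with the 6 miRNAs, against 11.8 with cel-miR-67. On the authors' scale all 6 intervals held 1, with ratios of 0.854 to 1.11. Over the listed reads the ratios were 1.09, 1.10, 1.19, 1.205, 1.21 and 1.06, all above 1, with intervals not given here. Those of miR-199a-3p and miR-302d-3p lay above their intervals on the authors' scale. SNORD22 alone holds 49.0% of the reads of these 12 rows. Without it the ratios on the authors' scale were 1.01 to 1.21 in 5 libraries, with intervals that held 1. That of miR-590-3p was 1.30 (1.03 to 1.66). The single U8 row (ENSRNOG00000056054) had 4.62, 4.52, 4.32, 3.39, 2.62 and 1.37 RPKM, against 3.57 RPKM with cel-miR-67, which at this depth allowed no call.

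Among members with at least 10 reads in either library, the largest changes of each comparison often rested on a few control reads. With miR-33b* SNORD73 (ENSRNOG00000052487), from RPS3A introns in humans, had 15 reads, against 2, a ratio of 7.58 (1.76 to 68.3), and with miR-199a-3p it had 13. With miR-373-3p SNORA27 (ENSRNOG00000058033) had 24 reads, against 3, at 5.92 (1.80 to 30.7). With miR-302d-3p both SNORD93 rows were near the top, with 25 and 22 reads, against 4 each, at 4.08 (1.41 to 16.1) and 3.59 (1.22 to 14.3). With miR-590-3p SNORA84 (ENSRNOG00000053824) had 10 reads and with miR-1825 SNORA36 (ENSRNOG00000054884) had 11, each against 1 with cel-miR-67, at 9.28 (1.32 to 403) and 9.31 (1.35 to 401). Ratios with intervals this wide give little more than their direction.

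At the low end 2 rows recurred. SNORD56 (ENSRNOG00000054607), a box C/D RNA of NOP56 introns in humans, had 8, 7, 9, 10, 15 and 6 reads with the 6 miRNAs, against 19 with cel-miR-67, and it was among the 3 lowest changes in 5 comparisons, all but miR-33b*. SNORD15 (ENSRNOG00000052293), from RPS3 introns in humans, had 3 reads with miR-199a-3p and 7 to 10 in the other 5, against 15 with cel-miR-67. It was among the 3 lowest for miR-199a-3p, at 0.168 (0.0311 to 0.593), for miR-302d-3p, at 0.305 (0.105 to 0.794), and for miR-373-3p, at 0.394 (0.145 to 0.991). SNORA32 (ENSRNOG00000051521) was lowest with miR-302d-3p, with 13 reads, against 28, at 0.303 (0.144 to 0.605). SNORA40 has 6 rows that went different ways. One (ENSRNOG00000057749) had 22.2 RPKM with miR-1825 and 6.64 with miR-199a-3p, against 13.4 RPKM with cel-miR-67. Another (ENSRNOG00000051707) had 24.3 RPKM with miR-590-3p, against 14.8 RPKM.

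Several proteins of the particles and of their assembly differed by more than counting error, all by less than 2-fold. Genes at large did so often too: by library, intervals lay above 1 for 24.2% to 30.1% of all genes and below 1 for 23.5% to 27.6%. With a mean of at least 1 RPKM stood 4 rows of box C/D proteins, 4 of box H/ACA proteins and 12 of assembly factors, and none passed 2-fold in any library, beside the shares of all genes given above. Ruvbl1, an ATPase of the complex that assembles the particles, had intervals above 1 in all 6 libraries, with ratios from 1.35 (1.22 to 1.48) for miR-33b* to 1.52 (1.40 to 1.66) for miR-302d-3p. Shq1, a chaperone of dyskerin, stood at 1.72 (1.32 to 2.25) with miR-373-3p and 1.68 (1.30 to 2.19) with miR-302d-3p, and its other 4 intervals held 1. Nolc1, which shuttles between nucleolus and Cajal bodies, had 1.43 (1.34 to 1.53) with miR-373-3p and 1.45 (1.36 to 1.55) with miR-302d-3p, but 0.887 (0.820 to 0.959) with miR-33b* and 0.858 (0.796 to 0.925) with miR-1825. Tgs1, which trimethylates RNA caps, was lower in the same pair of libraries, at 0.646 (0.574 to 0.727) and 0.723 (0.648 to 0.806). None of these ratios changed side of 1 over the listed reads, a scale on which their intervals were not computed. Nolc1 came nearer to 1 there, at 0.965 with miR-33b* and 0.940 with miR-1825. Nop58, a box C/D scaffold protein, stood at 31.0, 24.7, 26.1, 24.3, 23.2 and 27.4 RPKM with the 6 miRNAs, against 21.8 RPKM with cel-miR-67, higher in all 6, with the largest ratio for miR-199a-3p, at 1.42 (1.32 to 1.53). How many of all genes were higher in all 6 was not counted. Fibrillarin (Fbl) had 11.0 RPKM with miR-373-3p and 7.95 to 10.3 in the other 5, against 8.85 RPKM with cel-miR-67. Dyskerin (Dkc1) was lowest with miR-373-3p, at 9.99 RPKM, against 12.2 RPKM with cel-miR-67, and stood at 12.6 to 14.2 RPKM with the other 5. Nhp2 has 2 rows of nearly equal reads, and with each gene counted once the median log2 change of the box H/ACA proteins was 0.20 with miR-1825 (0.31 over the 4 rows), beside 0.00 over all genes, while SNORA rows without the leading row were at a ratio of 0.996 there.

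Host genes were described from a list of 49 symbols, of which 29 were found, in 30 rows. None passed 2-fold in any library. With miR-373-3p 27 of the 30 rows were higher than with cel-miR-67, with a median log2 change of 0.22, and with miR-302d-3p 26, with 0.19, beside medians of 0.01 and 0.02 over all genes. With miR-199a-3p 10 were higher, with a median of -0.09. Over the listed reads 29 of the 30 were higher there, and 15 to 29 in the other 5 libraries. No share of all genes was counted on that scale, on which the median log2 change of all genes was 0.30 with miR-199a-3p. Of the members, 163 of 293 (55.6%) were higher with miR-373-3p, beside 50.9% of all genes, and 161 (54.9%) with miR-302d-3p, beside 52%. With miR-199a-3p 147 (50.2%) were higher, beside 49.7%. With miR-33b* 174 (59.4%) were, beside 49.5%, and 19 of the 30 host rows were higher there. By symbol and length 46 members matched a RefSeq snoRNA, 44 of them inside a longer gene. For 31 of these the holding gene is a protein-coding gene with 1 row here. Per length, 29 of the 31 snoRNA rows had a lower mean RPKM than their host, and the median row stood at 0.0988 of it. SNORD2 had 45.9 RPKM in a host of 121 RPKM (Eif4a2), while SNORA64 had 6.68 RPKM in a host of 1146 RPKM (Rps2).

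Several rows cannot be treated as separate measurements. There were 65 symbols with 2 or more member rows. The 3 SNORD50 rows had identical reads in all 7 libraries, 265 in all for each, as had a pair of SNORA2 rows with 156 each and a pair of SNORD36 rows with 31 each. The 2 SNORD64 rows, a pair of SNORD24 rows, a second SNORD36 pair and a pair of SNORA30 rows differed by at most 10% in total and may count the same reads. Such closeness alone does not show shared reads: of the 18 pairs within 10%, 9 join different snoRNAs, such as SNORA70 with SNORD47 at 8.11%. Counting such rows once leaves out 8 rows and keeps all 6 ratios of the snoRNA sum inside their intervals.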

How the data were processed

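Per the labels' protocols, RNA of 7 cultures was sequenced with an mRNA protocol. The submitters' processing notes name STAR 2.7, edgeR and Rnor_6.0, without roles. No source used here gives the annotation, the read counter or the strand setting. The authors deposited RPKM values for 17141 genes and, for each miRNA, a ratio with cel-miR-67 as denominator, which was not used further.

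From the steps of the deposited RPKM a gene length and read numbers were recovered for 100% of rows, whole within 0.002 to 0.05 reads, by a method tested on simulated data. Where few reads leave several lengths possible, the shortest of at least 50 bases was taken. Changes used a pseudocount of 1 RPKM, and read-rate ratios exact Clopper-Pearson 95% intervals, which cover counting error only. Python 3.11.15 with numpy 2.4.6, pandas 2.3.3 and scipy 1.17.1 was used.

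Rows named singly were the 12 with the most reads, the 3 highest and 3 lowest changes per miRNA among members with 10 reads in either library, and 3 rows on each side of the limit. Families were named from those with 2 or more rows or 100 summed reads. Locus groups, Rtl1, SNORA1, SNORD107 and other rows outside this rule were chosen after their values were seen. The members and lists were chosen with earlier results of these data known. RefSeq names come from GRCr8, and no snoRNA sequences were used here.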

Additional observations from a re-analysis of the deposited data

How the results depend on the processing

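No paired analysis was possible because each group is 1 library, and for the same reason no replicate could be left out. Given from miR-199a-3p and miR-590-3p through miR-373-3p with miR-302d-3p to miR-33b* with miR-1825, a pseudocount of 0.1 RPKM gave 39, 42, 48, 42, 35 and 45 members at least 2-fold higher and 32, 40, 27, 29, 34 and 41 at least 2-fold lower. A pseudocount of 5 RPKM gave 3, 0, 2, 2, 1 and 0 higher and 0, 0, 0, 0, 0 and 2 lower. With at least 10 reads in either library there were 12, 9, 14, 10, 10 and 11 higher and 4, 6, 1, 5, 4 and 6 lower. Without the filter on mean RPKM every count of 2-fold rows and of intervals stayed within 1.5 times. Scaled to the listed reads, counts of 2-fold rows left that range for miR-199a-3p (44 higher, 9 lower), miR-302d-3p (28 higher) and miR-33b* (5 lower). Intervals did so for miR-199a-3p (35 above 1, 4 below), miR-302d-3p (30 and 5), miR-33b* (5 below) and miR-373-3p (31 and 5). No such counts over all genes were made on that scale. The ratios of the snoRNA sum were then 1.26 for miR-199a-3p, 1.23 for miR-302d-3p, 1.18 for miR-373-3p, 1.08 for miR-33b* and 0.986 for miR-1825. Those of SNORD rows were 1.28, 1.25, 1.21, 1.14 and 0.975 for the same 5 and those of SNORA rows 1.24, 1.23, 1.12, 0.977 and 0.995. Without the SNORD113 rows the SNORD ratio was 0.923 for miR-199a-3p, and over the listed reads 1.18, 1.24, 1.16, 1.11 and 1.02 for the same 5. Over the listed reads the miR-199a-3p ratios of the Gas5, Snhg1 and Eif4a2 snoRNAs turned to 1.04, 1.03 and 1.00. SNORD113 ratios were 2.09, 1.38 and 1.64 for miR-199a-3p, miR-302d-3p and miR-373-3p. Over listed reads outside mitochondrial rows the snoRNA sum left its interval for miR-199a-3p alone, at 1.03. Without the SNORA4 row with the most reads it left it for miR-33b*, at 1.03, and the SNORA ratios were 1.05 for miR-373-3p, 0.983 for miR-33b* and 0.996 for miR-1825. Restricting the sum to rows under 200 bases, taking the other 5 miRNA libraries as the denominator, counting like rows once or leaving out the leading SNORD113 row moved no ratio out of its interval, though the last gave miR-302d-3p an interval that holds 1. Counting like rows once, counting Nhp2 once and the alternatives for SNORD113 and the locus groups were chosen after seeing the data. The cause of these shifts was not tested. With a median of 8 control reads per member, depth limits what single rows can show.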
